A study of Mus musculus with 2 samples.

Results

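Transcripts of titin, of Z-disc and M-band proteins and of the factors that assemble sarcomeres were compared between a Cipc scko and a Cipc flox/flox library of cells labelled as satellite cells. The 36 genes were taken by symbol from a list of giant sarcomere proteins, Z-disc and M-band proteins and assembly factors, and all 36 were among the 16190 genes of the deposited count table. Total RNA came from the tibialis anterior, a hindlimb muscle, of C57BL/6 mice. The Cipc scko library is labelled with a satellite-cell deletion of Cipc and titled as the knockout, and the Cipc flox/flox library carries floxed Cipc alleles and is titled as wild type. The Cre driver, the age of the mice, how many were pooled and any culture of the cells are not stated by the labels, and the dystrophin-deficient mdx background of the series title is not among the sample labels. As each group had 1 library, none of the differences has a replicate check, no p-value was computed, and every interval covers counting error only. In a bulk library, fewer cells of a type and less RNA per cell cannot be told apart.

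Sarcomeres are the contractile units of striated muscle. Actin filaments are anchored at the Z-disc, myosin filaments are cross-linked at the M-band, and titin spans from one to the other as a molecular spring and ruler. Satellite cells are muscle stem cells that contain no sarcomeres, and these genes are known to be switched on when their progeny leave the cell cycle, fuse and build myofibrils.

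The libraries held 16830168 counts in Cipc scko, against 16145870 in Cipc flox/flox. Cipc itself had 594 counts in Cipc scko, against 1907 in Cipc flox/flox. Of 12 satellite cell markers 10 were in the table, of which 2 were higher in Cipc scko, 2 were lower and 6 were not called. Over all genes past the filter described below, 21.2% were called higher and 15.9% lower. Pax7, the transcription factor that defines satellite cells, had 998 counts in Cipc scko, against 43 in Cipc flox/flox. Cd34, a surface marker of quiescent satellite cells, had 3 counts in Cipc scko, against 427 in Cipc flox/flox, and Megf10 had 569 counts in Cipc scko, against 2960 in Cipc flox/flox. The called markers thus went in both directions, in numbers close to the shares over all genes. The sum of the 10 markers, in CPM (counts scaled to library size and composition), was 3242 CPM in Cipc scko, against 2576 CPM in Cipc flox/flox. The integrin genes Itga7 (1358 CPM in Cipc scko, against 1083 CPM in Cipc flox/flox) and Itgb1 (886 CPM in Cipc scko, against 544 CPM in Cipc flox/flox) held most of it. The libraries also differed in sex-linked genes, with Xist at 4 counts in Cipc scko, against 3898 in Cipc flox/flox, so the sex-linked difference and genotype cannot be told apart.

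The sarcomere genes were higher in Cipc scko in nearly every role. Calls required a difference of 2-fold or more and a 95% counting interval that left out equality. Of the 36 genes, 33 passed the filter on low values (1 CPM or more in either library, 20 or more counts in sum), and of these 30 were higher in Cipc scko, 1 was lower and 2 were not called. Over all 12874 genes past that filter, 21.2% were called higher and 15.9% lower. 14 of the 33 passed only through their level in Cipc scko and so had to differ. Of the 19 that also reached 1 CPM in Cipc flox/flox, 16 were higher and 1 lower, beside 13.5% and 17.6% of all genes with that level in Cipc flox/flox. Log2 ratios (Cipc scko over Cipc flox/flox) had a median of 5.19 over the 33 genes, or 3.66 with genes at 0 counts set to their lower bound, against 0.01 over all genes past the filter. Over the 19 genes with 1 CPM in both libraries the median was 2.79, against -0.05 over all genes of that kind. Without the filter, 31 of the 36 genes were higher, 1 was lower and 4 were not called. Of all 16190 genes, 3248 were then higher (20.1%) and 2356 lower. None of the 36 was at 0 in Cipc scko, and 10 were at 0 in Cipc flox/flox.

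**Figure D1:**
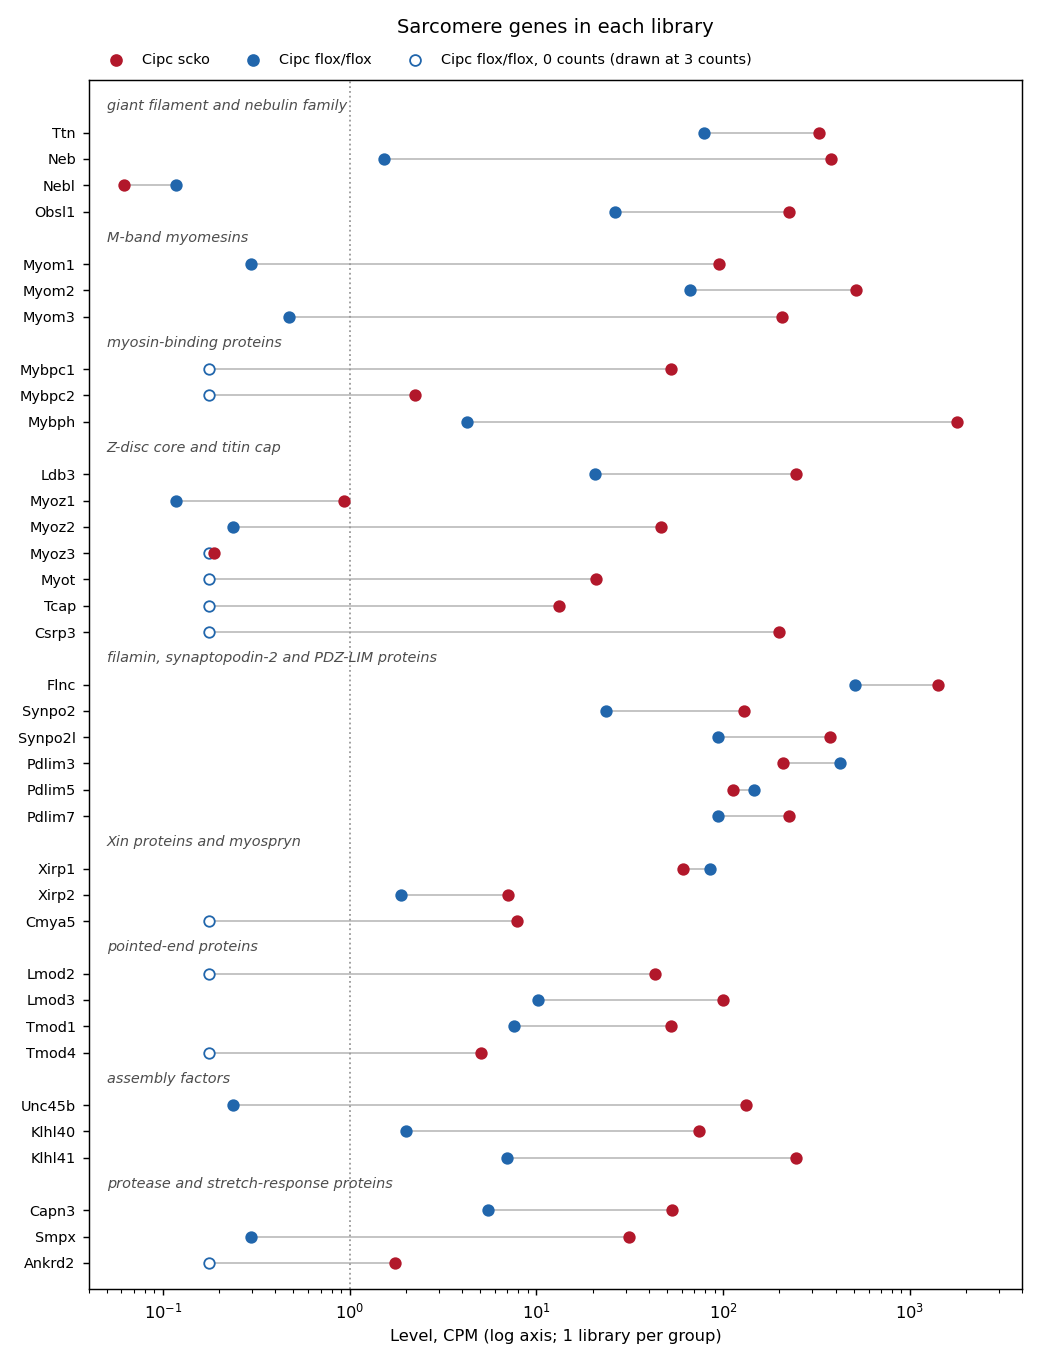
Level of each of the 36 genes in CPM (log axis) in the Cipc scko library (red) and the Cipc flox/flox library (blue), grouped by role, with 1 library per group and a dotted line at 1 CPM. Open circles are genes at 0 counts in Cipc flox/flox, drawn at the 0.177 CPM that 3 counts would give. The red point lies right of the blue one for all genes except Nebl, Pdlim3, Pdlim5 and Xirp1.

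Since these genes stood higher together, their promoter windows are shown beside their levels. RefSeq windows (GRCm38.p6, 250 bases before and 50 after the annotated gene start) were used for 28 of the 36 genes, as 37 windows, some of which overlap. Titin, Klhl41, Myom3 and Myoz2 are shown because their windows carry a MEF2 box, the site of a muscle transcription factor family, Mybph as the gene with the most counts in Cipc scko, and Pdlim3 as the gene that was lower. Capitals mark the E-box CANNTG, the site of MYOD-type factors, the MEF2 box, the CArG box and TATAAA, on either strand. Sequences run 5′ to 3′ in the direction of transcription.
Ttn, chr2:76982498-76982797, minus strand: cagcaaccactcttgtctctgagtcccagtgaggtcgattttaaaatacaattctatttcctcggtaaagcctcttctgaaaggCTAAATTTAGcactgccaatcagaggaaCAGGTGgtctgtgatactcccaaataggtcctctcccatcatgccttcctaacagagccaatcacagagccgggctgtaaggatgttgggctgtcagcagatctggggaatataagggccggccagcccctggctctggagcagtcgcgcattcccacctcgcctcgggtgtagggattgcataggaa
Klhl41, chr2:69669870-69670169, plus strand: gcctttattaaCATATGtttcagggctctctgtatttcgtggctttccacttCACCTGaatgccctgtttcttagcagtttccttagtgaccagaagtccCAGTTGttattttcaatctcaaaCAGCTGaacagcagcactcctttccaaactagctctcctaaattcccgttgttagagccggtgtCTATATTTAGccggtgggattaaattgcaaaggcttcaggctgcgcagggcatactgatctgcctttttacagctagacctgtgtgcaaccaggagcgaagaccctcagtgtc
Myom3, chr4:135759465-135759764, plus strand: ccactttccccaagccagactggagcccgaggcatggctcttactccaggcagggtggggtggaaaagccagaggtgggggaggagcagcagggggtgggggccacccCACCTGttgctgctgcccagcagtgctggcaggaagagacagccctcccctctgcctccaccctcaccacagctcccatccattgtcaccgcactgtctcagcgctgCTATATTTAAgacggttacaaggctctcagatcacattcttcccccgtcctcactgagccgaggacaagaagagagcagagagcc
Myoz2, chr3:123034938-123035237, minus strand: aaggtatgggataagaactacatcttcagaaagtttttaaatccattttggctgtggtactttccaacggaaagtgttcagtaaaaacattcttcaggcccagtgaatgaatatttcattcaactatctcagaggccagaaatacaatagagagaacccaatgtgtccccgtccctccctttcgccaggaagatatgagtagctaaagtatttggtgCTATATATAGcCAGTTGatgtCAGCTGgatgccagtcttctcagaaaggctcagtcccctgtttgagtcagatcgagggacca
Mybph, chr1:134193198-134193497, plus strand: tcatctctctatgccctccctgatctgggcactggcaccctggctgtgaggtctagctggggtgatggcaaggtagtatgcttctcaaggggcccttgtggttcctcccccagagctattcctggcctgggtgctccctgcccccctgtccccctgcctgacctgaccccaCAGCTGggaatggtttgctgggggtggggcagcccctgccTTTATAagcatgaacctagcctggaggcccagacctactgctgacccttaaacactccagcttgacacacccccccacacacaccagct
Pdlim3, chr8:45885237-45885536, plus strand: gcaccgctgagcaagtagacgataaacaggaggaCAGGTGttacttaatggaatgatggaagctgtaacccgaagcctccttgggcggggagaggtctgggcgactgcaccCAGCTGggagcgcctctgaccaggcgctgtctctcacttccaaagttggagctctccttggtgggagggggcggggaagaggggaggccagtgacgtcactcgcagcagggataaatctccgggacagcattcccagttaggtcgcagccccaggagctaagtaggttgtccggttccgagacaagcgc

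The MEF2 box, a stretch of A and T bases that may overlap TATAAA, was found in 9 of 37 windows (24.3%) and in 1.86% of all 32851 RefSeq windows of that length. In these 4 genes it began at position -166 for Ttn, -63 for Klhl41, -35 for Myom3 and -33 for Myoz2, counted from the base before the gene start as -1. The other genes with one were Capn3, Synpo2, Synpo2l and Xirp2. CANNTG stood in 75.7% of the windows and 72.3% of all windows. Its forms CAGCTG and CAGGTG stood in 29.7% and 35.1% of the windows, against 16.3% and 20.2% of all windows. The CArG box, the site of serum response factor, stood in 10.8% of the windows and in 1.63% of all windows. Its 4 windows came from only 3 of the 28 genes, Ldb3, Myom1 and Nebl. The Ldb3 windows overlap and share the same site, and Nebl was not called. CATTCC, the site of TEAD factors, stood in 21.6% and 14.7%, and TATAAA in 10.8% and 13.6%. The Mybph window held CAGCTG and TATAAA, and the Pdlim3 window held CAGGTG and CAGCTG. Neither held a MEF2 box, which was found in only 8 of the 28 genes. Windows of Csrp3, Unc45b, Lmod2, Mybpc1 and Klhl40, all higher in Cipc scko, held none either. These letters are a description of the windows, and binding was not measured.

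Giant filament genes differed in size of ratio. Titin (Ttn, ENSMUSG00000051747, GRCm38 chromosome 2, 76703980 to 76982547, minus strand, up to 347 exons in a transcript), the spring of the sarcomere, had 5255 counts (327 CPM) in Cipc scko, against 1332 counts (78.7 CPM) in Cipc flox/flox. Its log2 ratio was 2.06 (95% counting interval 1.97 to 2.14), a 4.16-fold higher level. Nebulin (Neb, chromosome 2, 52136647 to 52378474), which runs along the thin filament, had 6054 counts in Cipc scko, against 26 in Cipc flox/flox, or 7.91 in log2 (7.39 to 8.56). Titin was thus well covered in both libraries, whereas nebulin was close to the 1 CPM limit in Cipc flox/flox. Obsl1, which links titin to the M-band, had 225 CPM in Cipc scko, against 26.5 CPM in Cipc flox/flox (3.09, 2.95 to 3.24). Nebulette (Nebl), the cardiac relative of nebulin, had 1 count in Cipc scko, against 2 in Cipc flox/flox and was not detectable as different at this depth (-0.68, -6.81 to 3.34).

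M-band myomesins, which cross-link myosin filaments, were all higher in Cipc scko. Myom2 had 8224 counts in Cipc scko, against 1127 in Cipc flox/flox (log2 ratio 2.94, 2.85 to 3.03). Myom3 had 3320 counts in Cipc scko, against 8 in Cipc flox/flox (8.68, 7.79 to 9.99), and Myom1 had 1518 counts in Cipc scko, against 5 in Cipc flox/flox (8.18, 7.10 to 9.95). Per length, in the deposited FPKM (fragments scaled to gene length and library size), Myom2 led in both libraries. It made up 53.9% of the summed myomesin FPKM in Cipc scko, against 98.4% in Cipc flox/flox, and Myom3 31.9% in Cipc scko, against 1.02% in Cipc flox/flox. An exon of Myom1 overlaps Myl12a on the opposite strand, which had 21512 counts in Cipc scko, against 10779 in Cipc flox/flox.

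Myosin-binding protein genes were nearly silent in Cipc flox/flox. Mybph (chromosome 1, 134193448 to 134201232), which encodes the small myosin-binding protein H, had 28600 counts (1781 CPM) in Cipc scko, against 72 counts (4.25 CPM) in Cipc flox/flox, a 416-fold higher level (log2 8.70, 8.38 to 9.06). At 579 FPKM it ranked 67 of 16190 genes by FPKM in Cipc scko, and at 1.52 FPKM it ranked 9413 in Cipc flox/flox. Of its annotated exon bases 49.9% overlap Adora1 on the opposite strand, a gene with 46 counts in Cipc scko, against 1 in Cipc flox/flox. Mybpc1, the slow skeletal form of myosin-binding protein C, had 845 counts in Cipc scko, against 0 in Cipc flox/flox, at least 297-fold higher against a floor of 3 counts in the Cipc flox/flox library. Mybpc2, the fast form, had 36 counts in Cipc scko, against 0 in Cipc flox/flox (at least 12.7-fold). In Cipc scko the slow form stood at 8.97 FPKM and the fast form at 0.592 FPKM.

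Core Z-disc genes included several that were counted only in Cipc scko. Csrp3 (chromosome 7, 48830398 to 48848033), which encodes muscle LIM protein, had 3205 counts in Cipc scko, against 0 in Cipc flox/flox, at least 1126-fold higher against the floor of 3 counts. Myotilin (Myot), an actin cross-linker of the Z-disc, had 335 counts in Cipc scko, against 0 in Cipc flox/flox (118-fold higher or more). The titin cap gene Tcap had 213 counts in Cipc scko, against 0 in Cipc flox/flox (74.9-fold or more). None of these 3 genes was counted in Cipc flox/flox. Ldb3, which encodes the Z-disc scaffold ZASP/Cypher, was counted in both libraries. It had 3926 counts in Cipc scko, against 348 in Cipc flox/flox, 11.9-fold higher (log2 3.57, 3.41 to 3.73).

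Myozenins, also called calsarcins, tether calcineurin to the Z-disc. Myoz2, the form of slow fibres and heart, had 744 counts in Cipc scko, against 4 in Cipc flox/flox (log2 7.44, 6.25 to 9.50). Myoz1, the fast-fibre form, had 15 counts in Cipc scko, against 2 in Cipc flox/flox (2.70, 0.88 to 6.16), and Myoz3 had 3 in Cipc scko, against 0 in Cipc flox/flox, so that neither passed the filter. Per length, Myoz2 made up 91.9% of the myozenin FPKM in Cipc scko. In Cipc flox/flox all 3 genes together had 0.153 FPKM, too little to order them. As with the myosin-binding C proteins, the slow-fibre form stood above the fast-fibre form in Cipc scko, and this ordering within 1 library was not tested. The order was not the same in every family. In Cipc scko slow Tnnt1 (185 FPKM) stood below fast Tnnt3 (232 FPKM). Slow Tnni1 (161 FPKM) stood above fast Tnni2 (64.2 FPKM), and slow Tnnc1 (901 FPKM) above fast Tnnc2 (161 FPKM). Slow Myh7 (173 FPKM) also stood above fast Myh1 (4.14 FPKM), and slow Casq2 (42.3 FPKM) above fast Casq1 (5.87 FPKM). The reverse held for fast Mylpf (1220 FPKM) and slow Myl2 (1.42 FPKM), and for fast Myl1 (182 FPKM) and slow Myl3 (0.198 FPKM). Fast Atp2a1 (151 FPKM) likewise stood above slow Atp2a2 (88.6 FPKM).

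**Figure D2:**
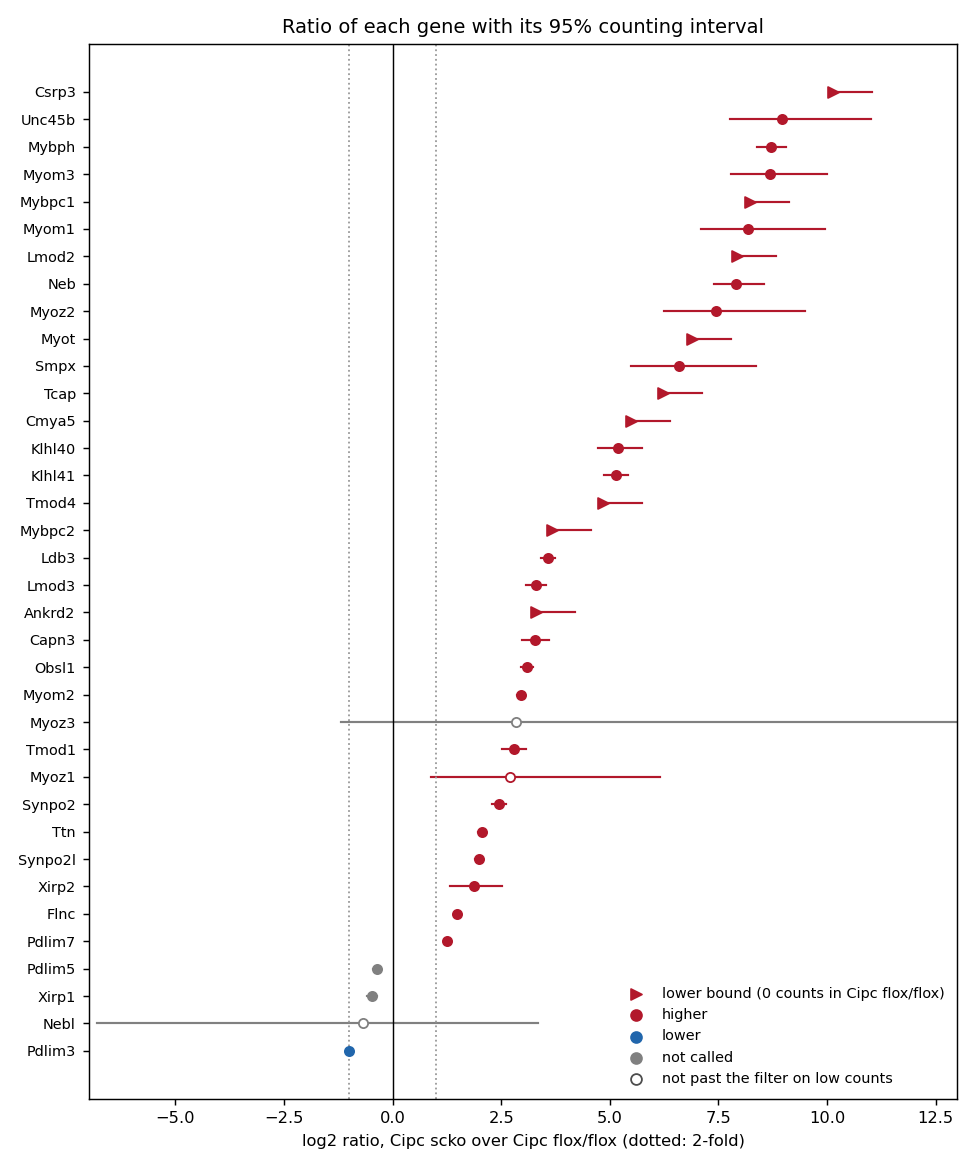
Log2 of the Cipc scko to Cipc flox/flox ratio for each gene with its 95% counting interval (1 library per group; dotted lines at 2-fold). Triangles with a line to the right are lower bounds for genes at 0 counts in Cipc flox/flox, and open markers are genes not past the filter. The ratios run from a bound of 10.14 for Csrp3 to -1.01 for Pdlim3.

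Filamin C, its partners and the PDZ-LIM proteins link actin to the Z-disc, and some of them are also made outside striated muscle. The 6 genes exceeded 20 CPM in both libraries, and their median log2 ratio was 1.37. Filamin C (Flnc, chromosome 6, 29433256 to 29461883) had 22757 counts (1417 CPM) in Cipc scko, against 8623 counts (509 CPM) in Cipc flox/flox, a 2.78-fold higher level (log2 1.48, 1.44 to 1.51). The synaptopodin-2 proteins bundle actin. Synpo2 had 2068 counts in Cipc scko, against 398 in Cipc flox/flox, 5.47-fold higher (2.45, 2.30 to 2.61), and Synpo2l had 5983 counts in Cipc scko, against 1595 in Cipc flox/flox, 3.95-fold higher (1.98, 1.90 to 2.06). Pdlim7 (enigma) had 225 CPM in Cipc scko, against 94.0 CPM in Cipc flox/flox (1.26, 1.17 to 1.34). Of these 6 genes 4 were thus higher, and Pdlim3 and Pdlim5 were not.

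Pdlim3, which encodes the α-actinin-associated LIM protein ALP, was the only gene called lower. It had 3361 counts (209 CPM) in Cipc scko, against 7130 counts (421 CPM) in Cipc flox/flox (log2 -1.01, -1.07 to -0.95; 2.01-fold lower). This lies at the 2-fold limit, and with upper quartile scaling the ratio was -0.97 and the call ended. Pdlim5 (ENH) had 113 CPM in Cipc scko, against 146 CPM in Cipc flox/flox (-0.37, -0.46 to -0.28), which did not reach 2-fold. Pdlim3 also had the highest FPKM of the 36 genes in Cipc flox/flox, 280 FPKM, with rank 148 of all genes. In Cipc scko it stood at 127 FPKM and rank 369.

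Xin proteins, adaptors at cell junctions and growing myofibrils, split. Xirp1 had 976 counts in Cipc scko, against 1434 in Cipc flox/flox (log2 -0.48, -0.60 to -0.36), which was not a 2-fold difference. Xirp2 had 113 in Cipc scko, against 32 in Cipc flox/flox, 3.68-fold higher (1.88, 1.32 to 2.51). Myospryn (Cmya5), a large costamere and Z-disc scaffold, had 127 counts in Cipc scko, against 0 in Cipc flox/flox (at least 44.6-fold). Both large genes, at 0.482 and 0.637 FPKM in Cipc scko, were low per length even in the library where they were higher.

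Pointed-end proteins set thin filament length, tropomodulins as caps and leiomodins as nucleators. Leiomodin 2 (Lmod2) had 693 counts in Cipc scko, against 0 in Cipc flox/flox (at least 244-fold higher), and Lmod3 had 1610 in Cipc scko, against 172 in Cipc flox/flox (log2 3.30, 3.08 to 3.54). Tmod1 had 841 counts in Cipc scko, against 128 in Cipc flox/flox (2.79, 2.52 to 3.07), and Tmod4 had 81 in Cipc scko, against 0 in Cipc flox/flox (at least 28.5-fold). Among these 4 genes, Lmod3 and Tmod1 were counted in Cipc flox/flox and Lmod2 and Tmod4 were at 0. Of the exon bases of Tmod1 32.6% overlap Tstd2 on the opposite strand, which had 678 counts in Cipc scko, against 713 in Cipc flox/flox.

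Assembly factors were 35.1-fold to 495-fold higher in Cipc scko. Unc45b, the chaperone that folds myosin heads, had 2119 counts in Cipc scko, against 4 in Cipc flox/flox (log2 8.95, 7.77 to 11.00). Klhl41, a kelch protein that stabilises nebulin, had 3947 counts in Cipc scko, against 118 in Cipc flox/flox (5.13, 4.88 to 5.42). Klhl40, which stabilises nebulin and leiomodin 3, had 1193 counts in Cipc scko, against 34 in Cipc flox/flox (5.19, 4.72 to 5.75). Both kelch genes thus had ratios of like size. The genes of their client proteins, Neb and Lmod3, had log2 ratios of 7.91 and 3.30. The genes grouped as protease and stretch-response proteins were higher as well. Capn3, a protease that docks on titin, had 859 counts in Cipc scko, against 93 in Cipc flox/flox (3.28, 2.97 to 3.61). Smpx, a small costameric muscle protein encoded on the X chromosome, had 501 in Cipc scko, against 5 in Cipc flox/flox (6.58, 5.49 to 8.35). Ankrd2, a stretch-responsive titin-binding protein of slow muscle, had 28 counts in Cipc scko, against 0 in Cipc flox/flox (at least 9.84-fold).

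Summed over the 36 genes, deposited FPKM came to 1562 in Cipc scko (0.486% of all FPKM in that library), against 408 in Cipc flox/flox (0.125%). The make-up of these sums differed. Mybph, Csrp3 and Flnc held 58.1% of the sum in Cipc scko, and Pdlim3, Flnc and Xirp1 held 85.2% in Cipc flox/flox. The ratio of the sums was 3.83, and it was 17.3 without Pdlim3 and Flnc and 2.42 without Mybph. Of the 36 genes 30 reached 1 FPKM in Cipc scko, against 14 in Cipc flox/flox. The order of genes depends on the length used: the length implied by the deposited FPKM was 0.973 kb for Csrp3 and 1.58 kb for Pdlim3, against longest GENCODE transcripts of 2.43 and 3.54 kb. With counts divided by the longest transcript, the leading genes in Cipc scko were Mybph, Flnc, Myom2 and Klhl41, with Csrp3 in place 6, and those in Cipc flox/flox were Pdlim3, Flnc, Pdlim5 and Pdlim7.

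Broadly expressed relatives of the same families served as a comparison within the families. In Cipc scko 5 of 23 such genes were called higher and 5 lower, beside 21.2% and 15.9% of all genes past the filter. The median of the 23 was 0.21 in log2. The highest by rule were Lmod1 (6.95) and Klhl13 (2.95), and the lowest were Synpo (-3.37) and Pdlim2 (-1.83). Flna, the widely expressed relative of Flnc, was near equal in CPM (log2 0.11, 0.09 to 0.13). The myosin chaperone Unc45b made up 74.1% of the FPKM of its family in Cipc scko, against 0.691% in Cipc flox/flox, while its general relative Unc45a differed by 0.44 in log2 (0.32 to 0.56). Tmod1 and Tmod4 together held 59.7% of tropomodulin FPKM in Cipc scko, against 9.41% in Cipc flox/flox, and Tmod3, the form of many other cells, held 39.4% in Cipc scko, against 90.5% in Cipc flox/flox. For leiomodins the share was smaller in Cipc scko, and the smooth muscle form Lmod1 was itself 123-fold higher (995 counts in Cipc scko, against 8 in Cipc flox/flox). For synaptopodins the share was 99.7% in Cipc scko, against 90.1% in Cipc flox/flox. For PDZ-LIM proteins the share was 76.6% in Cipc scko, against 78.7% in Cipc flox/flox, and its direction flipped with counts divided by the longest transcript (55.8% in Cipc scko, against 48.1% in Cipc flox/flox). Csrp1, a relative of Csrp3 made in smooth muscle and other cells, was 3.65-fold higher.

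**Figure D3:**
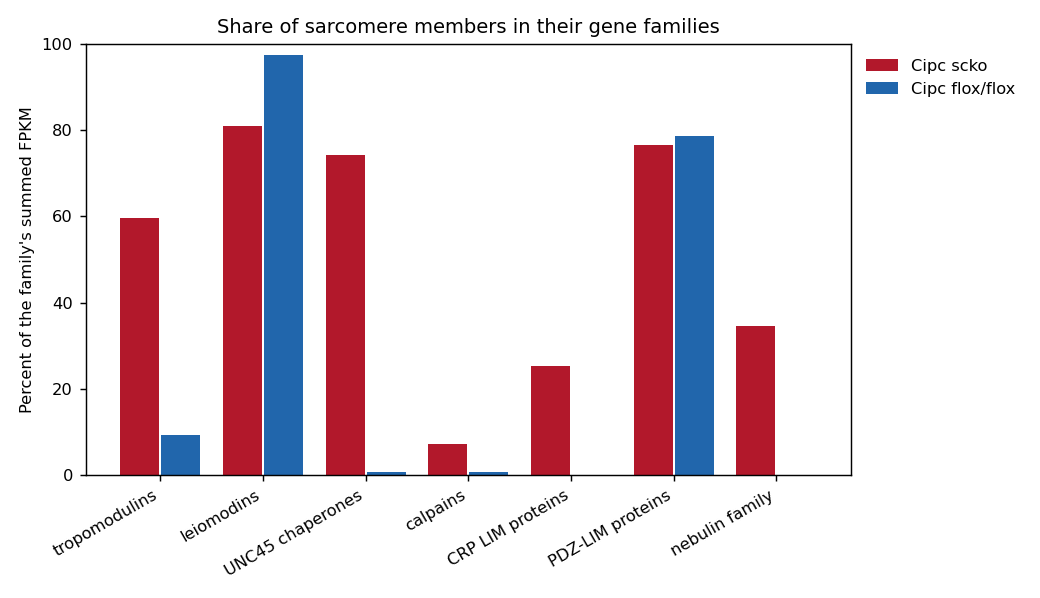
Share of each gene family's summed deposited FPKM held by its sarcomere members (the genes of the 36), in percent, in Cipc scko (red, left) and Cipc flox/flox (blue, right), 1 library each and no error bars. Of the families drawn, the share was larger in Cipc scko for tropomodulins (59.7% and 9.41%), UNC45 chaperones, calpains, CRP LIM proteins and the nebulin family, and smaller for leiomodins (81.0% and 97.5%) and PDZ-LIM proteins (76.6% and 78.7%), where it turned round with counts divided by the longest transcript.

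Other genes of the sarcomere and its attachments were taken from a list of 60, with 55 in the table and 52 past the filter. Calls in Cipc scko were higher for 24 of these and lower for 4, beside 21.2% and 15.9% of all genes past the filter. The median ratio of the 52 was 0.62 in log2. Of the 44 with 1 CPM in both libraries, 17 were higher and 4 lower (median 0.36), beside 14.3% and 13.6% of all genes of that level. The highest by rule were Actn2, the α-actinin of the Z-disc, with 9062 counts in Cipc scko, against 1 in Cipc flox/flox (12.62, 10.74 to 18.53), and myopalladin (Mypn), a partner of nebulin and α-actinin, with 770 counts in Cipc scko, against 1 in Cipc flox/flox (9.07, 7.18 to 14.97). The lowest were Lims2, a focal adhesion adaptor (-5.48, -6.00 to -5.05), and the small heat shock gene Hspb1 (-1.52, -1.56 to -1.47). Contractile protein genes were higher for 24 of 24 past the filter, beside 21.2% of all genes past it. Their median was 7.13, or 6.24 with genes at 0 set to their bound. Of the 24 genes, 13 reached 1 CPM in both libraries (13 higher, median 5.53), beside 14.3% of all genes of that level. The others passed only through Cipc scko and so had to differ. The highest contractile genes were Myh7, the slow myosin heavy chain (27995 counts in Cipc scko, against 0 in Cipc flox/flox), and Actc1, cardiac α-actin (33931 counts in Cipc scko, against 3 in Cipc flox/flox). The lowest were the tropomyosins Tpm1 (1.78) and Tpm2 (2.88). Of 18 excitation-contraction coupling genes 13 were called higher and 0 lower, beside 21.2% and 15.9% of all genes past the filter. Their median was 2.95. Among the 15 with 1 CPM in both libraries 10 were higher and 0 lower (median 2.79), beside 14.3% and 13.6% of all genes of that level. The calcium channel gene Cacna1s had 3761 counts in Cipc scko, against 0 in Cipc flox/flox (1322-fold higher or more). The calsequestrin gene Casq1 had 288 counts in Cipc scko, against 0 in Cipc flox/flox (101.2-fold or more), and its relative Casq2 had 2879 counts in Cipc scko, against 22 in Cipc flox/flox (135-fold). The lowest were Fkbp1a (-0.72) and Asph (-0.16).

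**Figure D4:**
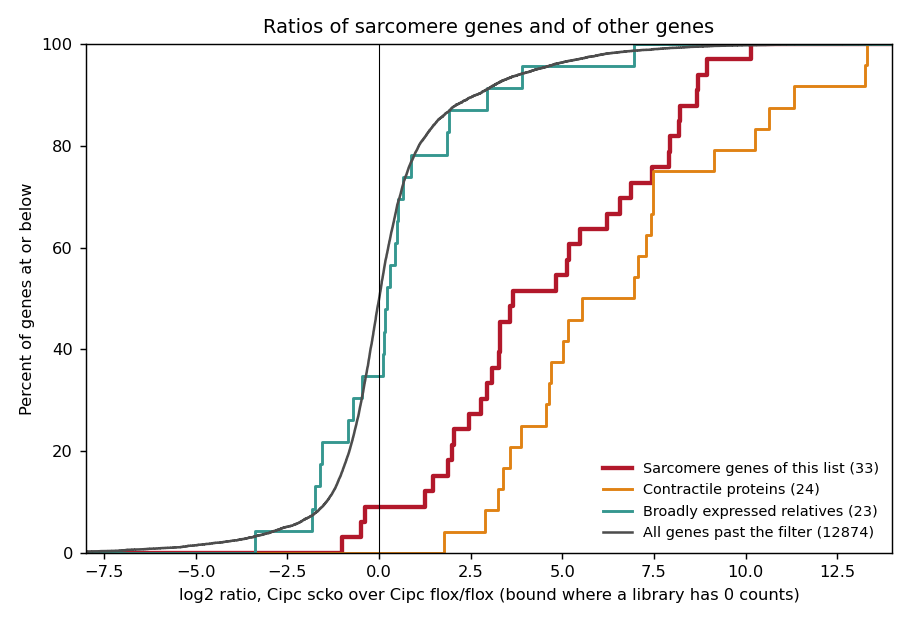
Cumulative share of genes, in percent, at or below each log2 value of the Cipc scko to Cipc flox/flox ratio. The lines are the 33 sarcomere genes past the filter, 24 contractile protein genes, 23 broadly expressed genes (labelled relatives, as most of them are) and all 12874 genes. Genes at 0 counts in a library are drawn at their bound. The sarcomere genes lie right of all genes (median 3.66 against 0.01), and the relatives lie close to all genes (0.21); 19 of the 33 sarcomere genes and 13 of the 24 contractile genes reached 1 CPM in both libraries.

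Factors known to drive or splice sarcomere transcripts were uneven. Of 27 past the filter 10 were higher and 4 lower (median 0.23), beside 21.2% and 15.9% of all genes past the filter. Of the 24 with 1 CPM in both libraries 7 were higher and 4 lower (median 0.10), beside 14.3% and 13.6% of all genes of that level. Myogenin (Myog) and the splicing regulator Rbm24 were the highest by rule. Myog had 44286 counts in Cipc scko, against 53 in Cipc flox/flox, and Rbm24 had 5001 in Cipc scko, against 0 in Cipc flox/flox. Mbnl1, another splicing regulator (-2.23, -2.40 to -2.06), and Hsp90aa1, the heat shock protein that works with UNC45 (-1.74, -1.81 to -1.67), were the lowest. The MEF2 genes Mef2a, Mef2c and Mef2d were all higher, and Mef2c had 1982 counts in Cipc scko, against 61 in Cipc flox/flox (log2 5.09, 4.73 to 5.49). Serum response factor (Srf) was 2.24-fold higher. From the same list, Mrtfa was 2.20-fold lower (log2 -1.14, -1.25 to -1.02), and Mrtfb was not called (-0.69, -0.83 to -0.54). Rbm20, which is known to regulate titin splicing, was close to equal at 56.4 CPM in Cipc scko, against 62.6 CPM in Cipc flox/flox. Gene counts do not show which titin isoforms were made.

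Markers of other cell types that make some of these proteins also differed. Of 12 smooth muscle and pericyte markers 9 were in the table, with a summed level of 14400 CPM in Cipc scko, against 785 CPM in Cipc flox/flox. Smooth muscle actin (Acta2) alone held 12432 CPM of this sum in Cipc scko, against 513 CPM in Cipc flox/flox. Of the 9 markers 7 were higher and 1 lower, beside 21.2% and 15.9% of all genes past the filter. Abcc9 was at 0 in Cipc flox/flox, and the pericyte marker Cspg4 went the other way, with 7 counts in Cipc scko, against 491 in Cipc flox/flox. Of 10 cardiac muscle markers 5 were in the table, with 6.85 CPM in Cipc scko, against 48.9 CPM in Cipc flox/flox. Gata4, Nppb and Nkx2-5 were at 0 in Cipc scko, while Myh6 was at 0 in Cipc flox/flox. Of 9 fibro-adipogenic markers 7 were in the table and summed to 1232 CPM in Cipc scko, against 2181 CPM in Cipc flox/flox. Of the 6 past the filter 1 was higher and 4 were lower, beside the same 21.2% and 15.9% of all genes. Col1a1 had 7196 counts in Cipc scko, against 1957 in Cipc flox/flox, and Col1a2 had 277 counts in Cipc scko, against 13597 in Cipc flox/flox. Pi16, which did not pass the filter, was at 0 in Cipc scko. Endothelial, macrophage, glial and tenocyte lists summed to 8.22, 6.10, 1.56 and 29.1 CPM in Cipc scko and to 0.886, 47.4, 20.8 and 75.7 CPM in Cipc flox/flox. The part of other cell types in the sarcomere gene differences was not tested.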

How the data were processed

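RNA-seq libraries of 2 groups, Cipc scko and Cipc flox/flox (1 each), were analysed. Per the file headers, deposited values were counts and FPKM of each Ensembl gene. HISAT2 2.0.4, StringTie 1.3.0, CASAVA and GRCm38 appear, without roles, in the submitters' processing notes. Counting tool, annotation release and use of strand: not given in the sources used here. By the authors' deposited values, FPKM are the counts rescaled by library total and a gene length: over 10899 genes the FPKM ratio divided by the count ratio lay between 0.99996 and 1.00003 after scaling by totals. They give levels per length only.

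Symbols and positions came from GENCODE vM21, in which 16116 of 16190 identifiers had a symbol. Counts were scaled with TMM (edgeR 4.0.16, R 4.3.3) to CPM. Log2 ratios used a prior count of 0.5, and intervals were exact binomial (Clopper-Pearson) at 95%. The intervals cover counting error only and leave out variation between animals and between library preparations. PCR copies of a molecule can be counted more than once, so the intervals may be too narrow even for counting error. For a gene at 0 the fold was bounded by setting it to 3 counts. This floor is a convention and not the lower 95% limit, which reached lower. In log2 that limit was 9.84 for Csrp3, against 10.14 from the floor, and 7.91 for Mybpc1, against 8.21. With 1 library per group no test was made. The calls and intervals were tested on simulated data. BLAST+ 2.17.0 found a near-identical copy (95% identity over 80% of the shorter transcript) in the table for 0 of the 36 genes. Alternatives included DESeq2 1.42.0 size factors.

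The 36 genes and the other lists were chosen with earlier results of these data known. All 36 are named, and from each other list except the cell type markers the 2 highest and 2 lowest by log2 ratio with a CPM of at least 5, plus relatives of the 36. Rbm20, Srf, Mrtfa, Mrtfb, Casq2, the troponin genes and the MEF2 genes fall outside this rule and were picked with their values in view. So were Myod1, Myf5, Myf6, Tead1, Tead4, Myh1, Atp2a1, Atp2a2 and the myosin light chain genes. Cipc, Xist and the markers were also picked in this way. Sequences of genes on chromosome 18 are not shown.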

Additional observations from a re-analysis of the deposited data

How the results depend on the processing

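None of the 252 alternative values of single genes, over 7 settings, changed sign. These settings only rescale the values or add a prior count or pseudocount, so a change of sign was hardly possible. Pdlim5, the gene closest to equality (log2 -0.37), ranged from -0.51 to -0.33. The unchanged signs are therefore no check on direction, and they include Nebl, whose counting interval (-6.81 to 3.34) spans both directions. The number of genes called higher was 30 under every scaling, with a 99% interval, a prior count of 5 and a fold limit of 1.5. The number was 28 with a CPM of at least 5 or an assumed coefficient of variation of 0.4 between animals, 27 by FPKM with a pseudocount of 1, 26 at a fold limit of 4 and 31 without the filter. Restricted to genes of at least 1 CPM in Cipc flox/flox, a setting chosen after seeing the data, it was 16 of 19. The 1 lower call, Pdlim3, became 0 with upper quartile scaling, a fold limit of 4 or the assumed variation. The median log2 ratio of 5.19 became 3.55 with a prior count of 5, and 3.40 and 2.65 by FPKM with pseudocounts of 0.1 and 1, and 4.35 without the filter. The log2 ratio of summed counts was 2.20. The ratio of summed FPKM, 3.83, became 6.11 with counts per kilobase of the longest transcript, and, chosen after seeing the data, 2.42 without Mybph and 17.3 without Pdlim3 and Flnc. Of all genes in the table, 1479 were higher by FPKM with a pseudocount of 1, 1608 higher and 860 lower at a fold limit of 4, 3318 lower at 1.5, and 1116 lower with the assumed variation. With scaling by library totals, all genes had a median of -0.13. Depth limits Nebl, Myoz1 and Myoz3. No replicate could be left out. No paired analysis was possible because each group has 1 library.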

Other observations

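Several of the 36 genes lie near each other. Myoz1 and Synpo2l lie 2405 bases apart on the minus strand of chromosome 14, and Myoz1 stood at 0.689 FPKM in Cipc scko, against 0.0957 FPKM in Cipc flox/flox, and Synpo2l at 31.2 FPKM in Cipc scko, against 8.66 FPKM in Cipc flox/flox. Myoz2 and Synpo2 lie 41.5 kb apart on chromosome 3, with log2 ratios of 7.44 and 2.45. In all, the 36 genes lie on 16 chromosomes, with 6 on chromosome 2.

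Exons of 13 of the 36 genes overlap those of another annotated gene, 11 of them on the opposite strand. Whether counting used strand is not given in the sources used here, so reads of such a pair cannot be told apart. The partner was in the count table for 4 of the 13, Adora1 (Mybph), Tstd2 (Tmod1), Myl12a (Myom1) and Ganc (Capn3). Ganc, on the same strand as Capn3, had 102 counts in Cipc scko, against 188 in Cipc flox/flox.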
